A study of Mus musculus with 8 samples.

Results

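The alcohol and aldehyde dehydrogenases examined here were 9 genes chosen by name, Adh1, Adh5, Adh7, Aldh1a1, Aldh1a7, Aldh2, Aldh3a1, Aldh3a2 and Aldh1l1, out of 18213 genes with a named probe on the array. Whole-kidney RNA of 8 mice, all 8 weeks of age, had been labelled with Cy3 and read on Agilent mouse arrays in 1 colour, each mouse on an array of its own. The 4 NEKO mice (2 females and 2 males) carried Keap1-/-, Nrf2Flox/Flox and K5-Cre, so that Keap1 was deleted throughout the body and Nrf2 only where the Keratin5 promoter drives Cre, in squamous epithelium. The 4 control mice (2 females and 2 males) were Keap1+/- and Nrf2Flox/Flox littermates, of which 3 also carried K5-Cre (K1Cre) and 1 female did not (K1, control replicate 1). All the mice were therefore Nrf2Flox/Flox, no control had 2 intact Keap1 alleles, and the background was a mixture of 129Sv/J and C57BL/6J. Levels are given on a log2 scale on which 0 is the 75th percentile of the processed signals on that array, and changes are differences of these levels, NEKO minus control, fitted with limma with sex as a term. All females were on one slide and all males on the other, with 2 NEKO and 2 control mice per slide. Sex and slide therefore cannot be told apart.

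Alcohol dehydrogenases oxidise alcohols to aldehydes with NAD, and aldehyde dehydrogenases oxidise aldehydes to the less reactive carboxylic acids. The substrates include ethanol and acetaldehyde, formaldehyde, retinol and retinal, and the aldehydes released when membrane lipids are peroxidised. Nrf2 is held at a low level by Keap1 and, when released, drives genes for the disposal of electrophiles, and reactive aldehydes are a class of electrophile that the kidney both filters and produces.

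The arrays were of similar quality, with between 61.7% and 65.7% of probes well above background and no saturated spot. Keap1, the gene deleted in NEKO mice, was lower in each NEKO kidney than in any control and changed by -1.63 (standard error 0.10, adjusted p = 0.0046 from limma). The Keap1 probe still gave signal well above background on 4 of 4 NEKO arrays, at 0.20 ± 0.17 (SD, n = 4), and which part of the transcript it reads was not tested. Nqo1, the quinone reductase used as a reference target of Nrf2, was 2.62 higher (standard error 0.43) and missed the threshold for a call, an adjusted limma p of 0.05, at 0.065. The kidney identity of the samples was checked on markers of the proximal tubule, and all 9 tested markers were well above background on all 8 arrays.

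Of the 9 dehydrogenases, 2 rose in NEKO kidneys, Adh7 and Aldh3a1, and none fell (limma, adjusted p under 0.05). Over all 19593 genes and unnamed transcripts tested, 0.097% were called higher and 0.128% lower. At an unadjusted limma p under 0.05, 4 of the 9 were higher and 0 lower, against 7.37% higher and 10.6% lower over everything tested. The 9 were chosen with earlier results of these data known, so nothing about the family is read from these counts. The median log2 change of the 9 was 0.36, and that of all features tested was -0.03. All 9 passed the filter on dim probes, and 7 were well above background on all 8 arrays. Adh7 and Aldh3a1 passed through the NEKO arrays alone, being well above background on 4 of 4 NEKO and 0 of 4 control arrays, so some difference between the groups was built into their passing.

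**Figure D1:**
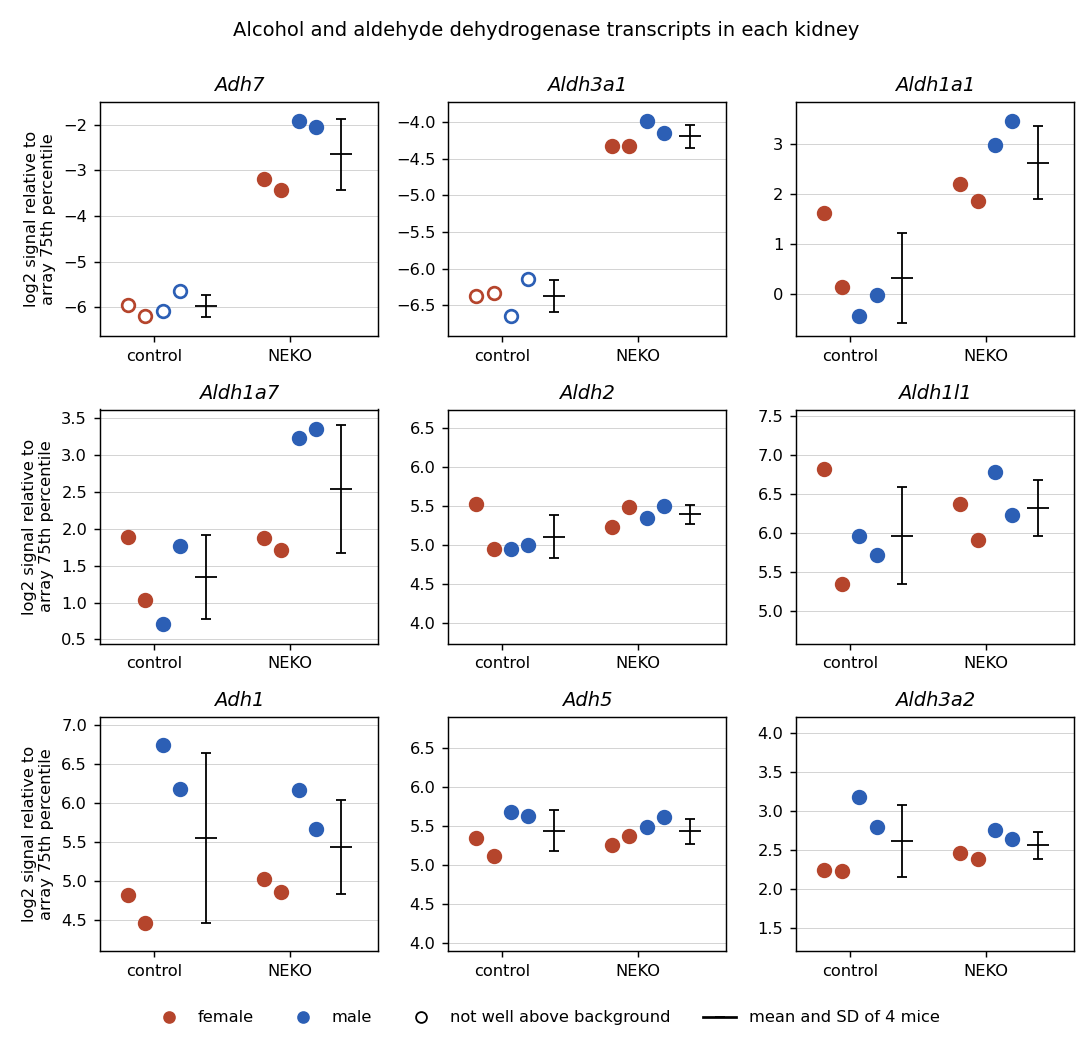
Each panel plots the log2 level of 1 gene, with the array's 75th percentile at 0 (each panel has its own range on the y axis) in 4 control and 4 NEKO kidneys, coloured by sex, with open circles for probes not well above background and the mean and SD of each group beside the points. For Adh7, Aldh3a1 and Aldh1a1 every NEKO kidney lies above every control kidney, and in the other panels the groups overlap.

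Adh7 encodes the class IV alcohol dehydrogenase, an enzyme of stomach, oesophageal and other surface epithelia with high activity towards retinol. Its level was -5.94 in control replicate 1, -6.08 in replicate 4, -5.65 in replicate 7 and -6.20 in replicate 8. In NEKO kidneys it was -3.18 and -3.44 in the females (replicates 2 and 3) and -1.93 and -2.06 in the males (replicates 5 and 6). The control values all lay at background and the NEKO values all lay above them, with the males above the females. Group means were -2.65 ± 0.77 (SD, n = 4) in NEKO and -5.97 ± 0.24 (SD, n = 4) in control mice. The fitted difference was 3.31 (standard error 0.24, adjusted p = 0.0073 from limma). The controls give no more than an upper limit, so the fold is stated as a bound: at least 6.87-fold higher in NEKO, where the dimmest detected probe of an array stood in for Adh7 on any control array on which Adh7 itself was dimmer. Under normexp background correction the change was smaller, 1.36 (adjusted p = 0.027 from limma), and the bound does not hold under that correction. That fit kept the same filter, which Adh7 passed through the NEKO arrays alone, so nothing is read from its call there. Over the alternatives the p ran from 0.00061 (limma, averaged over the sexes) to 0.31. The highest came from the methods' t-test with adjustment, under which Adh7 was not called.

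The promoter of Adh7 is shown because this gene is one of the 2 called members and the table holds its sequence. The sequence runs from 250 bases before to 50 bases after the start in RefSeq of GRCm38.p6 (chr3:138217523-138217822, plus strand). The capitals mark TGANTCA, the site of AP-1 factors, searched on both strands.

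Adh7: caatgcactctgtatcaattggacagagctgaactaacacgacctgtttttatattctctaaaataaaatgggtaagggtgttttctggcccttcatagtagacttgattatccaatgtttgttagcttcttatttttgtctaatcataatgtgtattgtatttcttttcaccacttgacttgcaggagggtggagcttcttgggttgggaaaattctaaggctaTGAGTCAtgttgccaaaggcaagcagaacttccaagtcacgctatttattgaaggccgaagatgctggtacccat

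The match began 25 bases before the start. Of all 32851 promoters of this length in the table, 7.81% held these letters. The core of the antioxidant response element, TGACNNNGC on either strand, to which Nrf2 binds with a small Maf protein, was found in 12.4% of all promoters and in none of the 9 windows held for 7 of the dehydrogenases. A match is a description of the letters, and its absence says nothing of other places where Nrf2 may bind.

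Aldh3a1 encodes a class 3 aldehyde dehydrogenase, abundant in cornea and stomach, that oxidises medium-chain and aromatic aldehydes and products of lipid peroxidation. Its level was -6.37, -6.65, -6.13 and -6.33 in control replicates 1, 4, 7 and 8. It was -4.32 in both NEKO females, -3.99 in NEKO replicate 5 and -4.14 in NEKO replicate 6. The 4 NEKO kidneys were close to each other and well separated from the controls, at -4.19 ± 0.16 (SD, n = 4) against -6.37 ± 0.21 (SD, n = 4). The fitted difference was 2.18 (standard error 0.13, adjusted p = 0.0042 from limma), and as a bound the NEKO level was at least 2.36-fold higher. The NEKO signal was itself dim on this array, and under normexp the change was 0.58 (adjusted p = 0.027 from limma), where the bound does not hold. That fit too kept the filter, so nothing is read from its call there. Over the alternatives the p ran from 6.27e-06 (the methods' t-test without adjustment) to 0.061 (the methods' t-test with adjustment, not called). Both Adh7 and Aldh3a1 were called in 8 of 8 fits that each left out 1 mouse. Those fits kept the filter set on all 8 arrays. Both genes had passed it through the NEKO arrays alone, so nothing is read from the count.

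Aldh1a1 and Aldh1a7 are close paralogs that encode cytosolic aldehyde dehydrogenases. Aldh1a1 makes retinoic acid from retinal, and Aldh1a7 is a rodent gene. Aldh1a1 was at 1.61 in control replicate 1, the K1 female without Cre, and at -0.45, -0.01 and 0.13 in control replicates 4, 7 and 8. It was at 2.20 and 1.86 in the NEKO females and at 2.99 and 3.46 in the NEKO males. Every NEKO kidney was above every control kidney, though control replicate 1 came near the lower NEKO female. The means were 2.63 ± 0.73 (SD, n = 4) and 0.32 ± 0.90 (SD, n = 4), a fitted difference of 2.31 (95% interval 1.04 to 3.58, adjusted p = 0.12 from limma) that did not pass the threshold. Without control replicate 1 the difference was 2.84 (limma, adjusted p = 0.081, with a range from 0.081 to 0.29 over the 8 fits that omit 1 mouse).

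Aldh1a7 was at 1.88, 0.71, 1.76 and 1.03 in control replicates 1, 4, 7 and 8. It was at 1.87 and 1.71 in the NEKO females and at 3.22 and 3.35 in the NEKO males. The NEKO females lay within the range of the controls and the NEKO males above it, so the groups overlapped. The means were 2.54 ± 0.87 (SD, n = 4) and 1.35 ± 0.57 (SD, n = 4), and the fitted difference of 1.19 (95% interval 0.20 to 2.18) had an adjusted p of 0.21 from limma. The transcripts are similar enough that 1 probe may read both, which was not tested, so the 2 values may not be separate measurements.

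The promoters of these paralogs are shown because they share sequence at the start of transcription. No other protein-coding gene lies between them on chromosome 19. RefSeq gives 2 start sites for Aldh1a1, and the downstream one (chr19:20601718-20602017, plus strand, GRCm38.p6) is set beside Aldh1a7 (chr19:20727507-20727806, minus strand). The capitals mark runs of at least 12 bases found, in the same order, in both.

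Aldh1a1: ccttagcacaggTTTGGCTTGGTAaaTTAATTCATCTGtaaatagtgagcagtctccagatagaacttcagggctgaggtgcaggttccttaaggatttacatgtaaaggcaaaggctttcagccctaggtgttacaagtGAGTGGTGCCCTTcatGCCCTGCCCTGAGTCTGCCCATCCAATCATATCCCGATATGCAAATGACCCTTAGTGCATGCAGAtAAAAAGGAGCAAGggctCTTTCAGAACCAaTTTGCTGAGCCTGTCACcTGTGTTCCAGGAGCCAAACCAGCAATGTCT
Aldh1a7: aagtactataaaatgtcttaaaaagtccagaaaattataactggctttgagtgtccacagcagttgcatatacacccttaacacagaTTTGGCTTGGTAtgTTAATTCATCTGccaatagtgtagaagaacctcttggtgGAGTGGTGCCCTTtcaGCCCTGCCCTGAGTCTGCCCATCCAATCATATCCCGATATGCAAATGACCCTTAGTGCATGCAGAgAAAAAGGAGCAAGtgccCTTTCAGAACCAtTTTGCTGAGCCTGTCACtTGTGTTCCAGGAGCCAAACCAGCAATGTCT

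From 100 bases before the start to 50 after it, 142 of 150 bases were the same (94.7%), and the longest shared run was 65 bases. The upstream window of Aldh1a1 (chr19:20492333-20492632) shared no such run with Aldh1a7 and held a TGANTCA match beginning 57 bases before its start. For comparison, the neighbouring Adh7 and Adh1 windows shared no run of 12 bases.

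Aldh2, the mitochondrial enzyme that clears acetaldehyde and the lipid aldehyde 4-hydroxynonenal, was at 5.52 in control replicate 1 and between 4.95 and 5.00 in the other controls, and between 5.23 and 5.49 in NEKO kidneys. All but 1 of the controls lay below the NEKO range. The difference of 0.28 (95% interval -0.06 to 0.63) had an adjusted p of 0.35 from limma, and without control replicate 1 it was 0.43 (limma, adjusted p = 0.17, with a range from 0.17 to 0.57 over those 8 fits). Aldh1l1, the cytosolic 10-formyltetrahydrofolate dehydrogenase that removes one-carbon units from folate, was between 5.35 and 6.82 in control kidneys and between 5.91 and 6.78 in NEKO kidneys. Its highest control value was again in replicate 1. The difference was 0.36 (95% interval -0.43 to 1.15, adjusted p = 0.59 from limma). It was 0.71 without control replicate 1, 0.13 without control replicate 8 and 0.19 without NEKO replicate 5, so single mice decide its size.

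For Adh1, Adh5 and Aldh3a2 the genotypes overlapped and the fitted differences were near 0. Adh1 encodes the class I enzyme that oxidises ethanol and retinol. It was at 4.82, 6.74, 6.18 and 4.46 in control replicates 1, 4, 7 and 8, and at 5.02, 4.86, 6.17 and 5.67 in NEKO replicates 2, 3, 5 and 6. Males were high and females low in both genotypes, by 1.82 among controls and by 0.98 among NEKO mice. The difference between genotypes was -0.12 (95% interval -0.67 to 0.43, adjusted p = 0.81 from limma), and the second Adh1 probe gave -0.15. Adh5, the class III enzyme that handles formaldehyde bound to glutathione and also reduces S-nitrosoglutathione, had the narrowest interval of the 9, from -0.22 to 0.20 around a difference of -0.01 (adjusted p = 0.97 from limma). Its sign turned under quantile normalization. Aldh3a2, the fatty aldehyde dehydrogenase of the endoplasmic reticulum, was at 2.56 ± 0.17 (SD, n = 4) in NEKO and 2.61 ± 0.46 (SD, n = 4) in control mice, a difference of -0.05 (95% interval -0.36 to 0.26, adjusted p = 0.86 from limma).

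Neighbours on a chromosome differed in their changes. Aldh3a1 and Aldh3a2 are adjacent on chromosome 11 with no protein-coding gene between them, and their changes were 2.18 and -0.05. On chromosome 3 the alcohol dehydrogenases lie in the order Adh7, Adh1, Adh6a, Adh6b, Adh4 and Adh5, and Adh7 changed by 3.31 beside -0.12 for Adh1. Adh6a was well above background on 4 of 4 control and 0 of 4 NEKO arrays, so that it passed the filter through the controls alone, and differed by -2.14 (standard error 0.35; limma, adjusted p = 0.065). As a bound, set with the dimmest detected probe as for Adh7, its NEKO level was at least 2.82-fold lower. Whether this bound holds under normexp was not tested. No test was made of the differences between neighbours.

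Counted gene by gene, every NEKO kidney lay above every control kidney for 3 of the 9, Adh7, Aldh3a1 and Aldh1a1, and below for 0, beside 3.88% and 5.39% of all features tested. Adh7 and Aldh3a1 had passed the filter through the NEKO arrays alone, so this separation was largely built in for them, and nothing is read from the count. For Aldh1a1, detected on all 8 arrays, a 2-sided exact permutation test over all mice gave p = 0.0286. The exact permutation test that kept sex and slide fixed gave p = 0.0556. Each is the smallest its design allows, so the latter cannot pass 0.05. Aldh1a1 was picked here for its full separation, which by itself fixes both values, so they add nothing to it. For the other members detected on all 8 arrays, the exact permutation test over all mice gave p from 0.14 to 0.94.

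Within the sexes, the changes of Adh1 and Aldh3a2 were of opposite sign and the genotypes did not overlap within either sex. This held for 2 of the 9 genes and for 5.95% of all features tested. The Adh5 changes also differed in sign but were near 0. With controls at background in both sexes, Adh7 was at least 4.77-fold higher in NEKO females and at least 9.91-fold higher in NEKO males. For Aldh3a1 the bounds were 2.37-fold and 2.36-fold. These bounds use the same dimmest detected probe as those over all mice, which do not hold under normexp. No difference between the sexes is read from them for either gene. Aldh1a1 was 1.16 higher in females and 3.46 higher in males, and Aldh1a7 0.34 and 2.05 higher. The corresponding values were 0.12 and 0.45 for Aldh2, and 0.06 and 0.66 for Aldh1l1. They were 0.30 and -0.54 for Adh1, 0.08 and -0.10 for Adh5, and 0.19 and -0.29 for Aldh3a2.

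In the model with an interaction of sex and genotype, none of the 9 passed (limma, adjusted p from 0.19 to 0.83), where 0.0153% of everything tested did. At an unadjusted limma p under 0.05 the interaction passed for 3, Adh7 (1.11), Aldh1a1 (2.31) and Aldh1a7 (1.71), beside 10.5% of all features. The Adh7 value is taken against a control level at background in both sexes. Control replicate 1, the only control without K5-Cre, was a female, so Cre and sex are not balanced among the controls. Without it the interaction was 1.57 for Aldh1a1 and 1.285 for Aldh1a7. The interaction went from 0.32 to 0.04 for Aldh2 and from 0.60 to -0.13 for Aldh1l1. Without control replicate 8, the other control female, these values, in the same order, were 3.05, 2.14, 0.60 and 1.33.

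**Figure D2:**
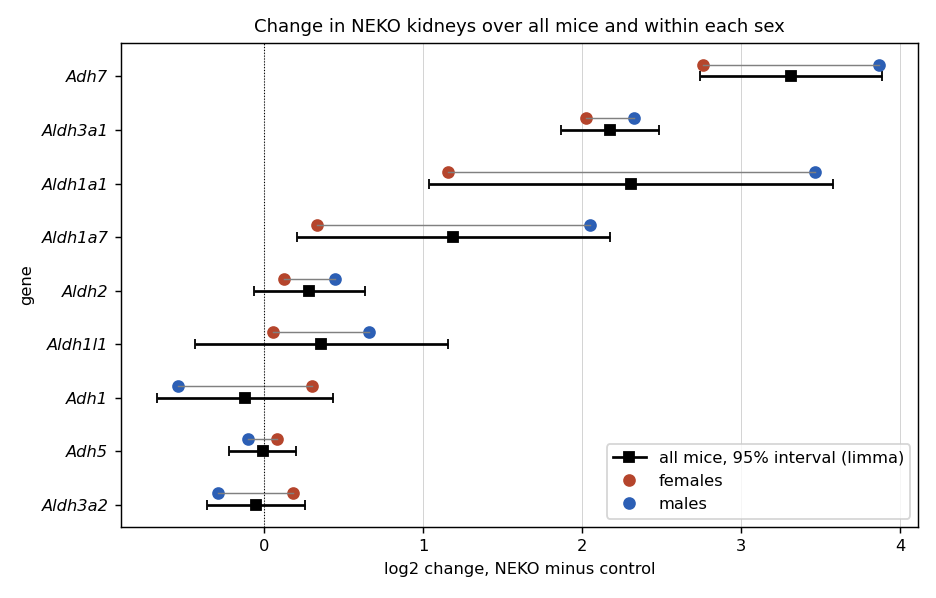
The log2 change, NEKO minus control, is plotted on the x axis for each of the 9 genes, with a square and 95% interval from limma for all 8 mice and circles joined by a line for the females and the males alone. The intervals of Adh7, Aldh3a1, Aldh1a1 and Aldh1a7 lie above 0, and the circles of Aldh1a1 lie at 1.16 in females and 3.46 in males, while the values of Adh7 and Aldh3a1 are taken against controls at background.

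Genes with the profile most like that of each called member were sought by the smallest root mean square difference over the 8 arrays, with each gene centred on its own mean. For Adh7 they were Tmem74 (0.21), Fetub (0.41) and Pir (0.43), with changes of 3.36, 2.90 and 2.74. For Aldh3a1 they were Cyp4f39 (0.37), Gdf15 (0.38) and Mest (0.39), with changes of 2.29, 1.69 and 1.91. Tmem74 and Cyp4f39 were, like the members they resembled, well above background on 0 of 4 control and 4 of 4 NEKO arrays, and the other 4 were well above background on all 8.

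Of 19 further alcohol and aldehyde dehydrogenases listed, 15 could be tested and none was called (limma). At an unadjusted limma p under 0.05, 2 were higher and 2 lower, beside 7.37% higher and 10.6% lower over everything tested. The methods' t-test without adjustment also gave 2 and 2. Their median change was 0.19. The largest changes were those of Adh6a, given above, of Aldh1l2 and of Aldh4a1. Aldh1l2, the mitochondrial counterpart of Aldh1l1, was between -4.08 and -3.53 in control and between -5.76 and -4.39 in NEKO kidneys, which differed by -1.28 (standard error 0.21; limma, adjusted p = 0.066). The groups did not overlap, but only 1 of 4 NEKO arrays had it well above background, against 4 of 4 control arrays, so most NEKO values are no more than upper limits. Aldh4a1, a mitochondrial enzyme of proline breakdown, was between 4.55 and 5.34 in control and between 5.53 and 5.96 in NEKO kidneys, which differed by 0.81 (standard error 0.23; limma, adjusted p = 0.17).

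Pathways that share substrates with the 9 enzymes were described in the same way, and none of their genes was called (limma). Their unadjusted limma counts, here and in the next paragraph, stand beside 7.37% higher and 10.6% lower over everything tested. Of 20 tested genes of retinoid metabolism and transport, 2 were higher and 2 lower at an unadjusted p under 0.05, with a median of 0.04. Its largest changes were 1.18 for Rbp4, the plasma carrier of retinol, -0.97 for Rdh12, a retinal reductase, and -0.85 for Stra6, a retinol transporter. Of 22 tested genes of folate one-carbon metabolism, 6 were higher and 2 lower at an unadjusted p under 0.05, with a median of -0.02. Its largest changes were 0.73 for Mthfd2l and 0.52 for Mthfd1l, enzymes of mitochondrial folate, and 0.67 for Gldc of the glycine cleavage system. Mthfd2l was well above background on 2 of 4 control and 4 of 4 NEKO arrays, so its change is taken partly against background.

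Of 12 tested genes of formaldehyde, acetaldehyde and ethanol handling, 5 were higher and 0 lower at an unadjusted p under 0.05, with a median of 0.38. Aox1, the aldehyde oxidase that turns aldehydes into acids with oxygen in place of NAD, was between -4.40 and -2.83 in control kidneys. It was at -0.75 and -1.20 in the NEKO females and at 0.50 and 0.97 in the NEKO males. These values did not overlap, and the change was 3.43 (standard error 0.53, adjusted p = 0.063 from limma). Next came monoamine oxidase Maoa, with a change of 0.83, and catalase, Cat, with 0.81 (adjusted p = 0.29 and 0.081 from limma).

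**Figure D3:**
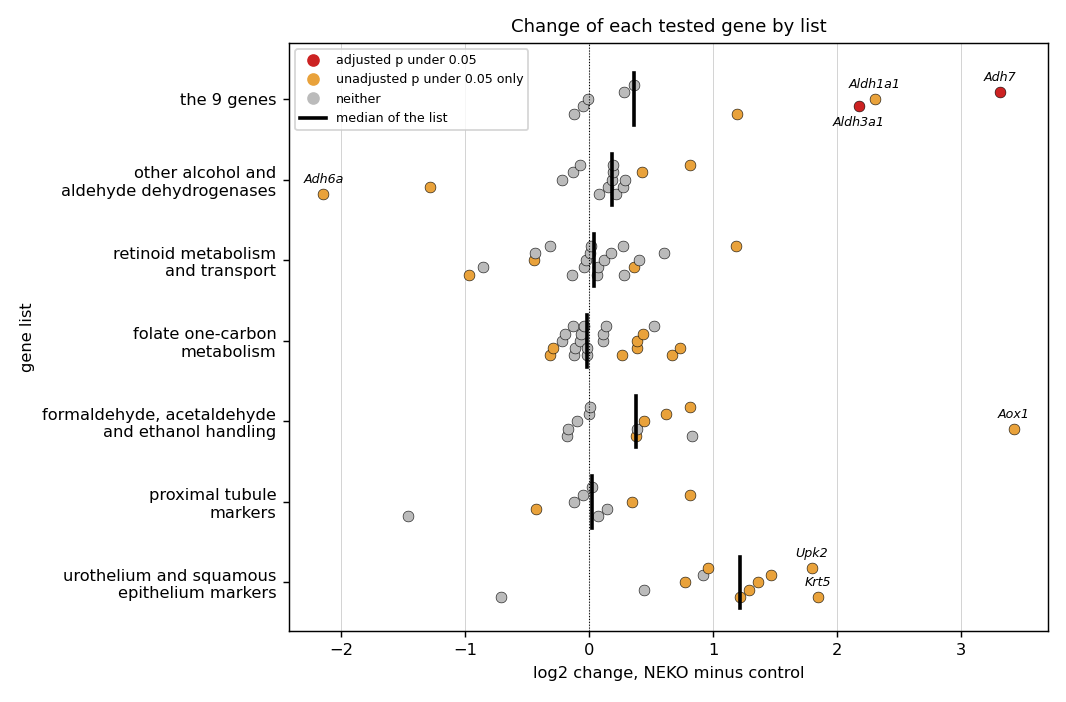
Each point is the log2 change, NEKO minus control, of 1 tested gene, in rows by gene list and coloured by limma's adjusted and unadjusted p, with a bar at the median of each list. Only Adh7 and Aldh3a1 carry the colour of an adjusted p under 0.05 among the lists drawn, and the urothelium and squamous epithelium markers have the highest median, 1.22.

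Markers of other cells were read beside these values, since in whole-kidney RNA fewer cells of a type and less RNA per cell cannot be told apart. For the proximal tubule the median change of 9 markers was 0.02, and the summed linear level of the list was between 610.2 and 833.2 in control and between 681.5 and 785.0 in NEKO kidneys. For urothelium and squamous epithelium, where Adh7 and Aldh3a1 are known to be expressed, 8 of 11 markers were higher at an unadjusted limma p under 0.05. Over everything tested that share was 7.37%. None of the 11 was called, and their median was 1.22. All 11 were well above background on all 8 arrays. The summed level of that list was between 1.72 and 4.11 in control and between 3.52 and 9.06 in NEKO kidneys. Krt5 had the largest change in it, 1.85 (adjusted p = 0.14 from limma). Upk1a, a uroplakin of the same list named after its value was seen, went the other way, with every NEKO kidney below every control and a difference of -0.71 (adjusted p = 0.29 from limma). Within the sexes the 11 markers were uneven. Their changes ran from -1.22 (Upk1a) to 1.04 (Krt5) in females and from -0.20 (Upk1a) to 3.24 (Upk2) in males. The part of these cells in the rise of Adh7 and Aldh3a1 was not tested. Intercalated cell markers had a median of -0.90, and those of distal convoluted tubule -0.81, thick ascending limb -0.27, principal cells -0.20, macrophages -0.06, lymphocytes 0.12, endothelium 0.14, podocytes 0.22 and fibroblasts 0.51, with no gene called in any of them.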

How the data were processed

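Kidney RNA of 4 NEKO and 4 control mice was measured on 8 Agilent 1-colour arrays. Per the file headers, the authors deposited Feature Extraction 10.7.3.1 output with intensity values, both the software's processed, spatially detrended signal and raw median signals of spot and background. In a second table from the authors, 41079 probes had log2 values, and 100% of these lay within 0.01 of the scale used here after centring each probe on its median. Groups came from the labels. Replicate numbers run over both groups and the sample titles name no litter, so no pairing was used.

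Outlier spots were left out, between 73 and 172 of 43379 per array, and spots of 1 probe averaged. The 75th percentile of log2 processed signal over non-control probes was subtracted on each array. A probe was kept if 4 or more of 8 arrays had it well above background and 6 or more had a value, and the brightest such probe stood for its gene. By accession, 26682 of 41174 probes matched RefSeq genes of GRCm38.p6, which served for names, gene order and promoters only, since the array annotation is on mm9. The fit was limma 3.58.1 (R 4.3.3) with genotype and sex, and Benjamini-Hochberg adjustment over 19593 features. The scripts were tested on simulated data. The number of arrays limits the precision. The study's methods name an unpaired comparison with unequal variances, here called the methods' t-test and used as an alternative.

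The members and gene lists were chosen with earlier results of these data known. All 9 members are reported. From each pathway list the called genes, or else the 3 with the largest absolute change, are named, with Keap1, Nqo1 and the 3 profiles most like each called member. Alternatives covered background correction, scaling, the filter, probes, the sex term, slide as a random block, the variance prior, the test, the deposited matrix and leaving out each mouse. The permutation within sex was added after seeing the data.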

Additional observations from a re-analysis of the deposited data

Results flagged for a closer look

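For Aldh2 in the controls, 1 mouse lay far from the other 3: control replicate 1, the K1 female without Cre, was high at 5.52 against 4.95 to 5.00, a gap of 0.91 of the range of the group. The gap passed the 95% critical value of Dixon's test, which chance passes in roughly 1 of 20 groups, and 18 groups of 4 were examined.

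For Adh1 and Aldh3a2 the genotypes moved in opposite directions in the sexes, with both NEKO females above both control females and both NEKO males below both control males. The effect in males minus that in females was -0.85 for Adh1 (unadjusted p = 0.057, adjusted p = 0.49 from limma) and -0.47 for Aldh3a2 (unadjusted p = 0.061, adjusted p = 0.50 from limma), so neither difference passed. The same pattern, in either order of the sexes, was found in 5.95% of all features tested.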

How the results depend on the processing

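No paired analysis was made, because the groups share no replicate number and the sample titles name no litter. The 2 members called higher became 0 when detection was required on all 8 arrays, since Adh7 and Aldh3a1 were then not tested, and 0 under the methods' t-test with adjustment, where Adh7 (3.31) had an adjusted p of 0.31 and Aldh3a1 (2.18) one of 0.061. Aldh1a1 (2.31) was called when female and male effects from the interaction model were averaged (adjusted p = 0.030 from limma) and under the methods' t-test without adjustment, and in no other alternative. The sign of Adh5 turned under quantile normalization (0.028). Over fits that each omit 1 mouse the change ran from -0.28 to 0.077 for Adh1, from -0.073 to 0.038 for Adh5 and from -0.11 to 0.073 for Aldh3a2, and the interaction of Aldh1l1 ran from -0.13 to 1.33, so that their signs are not settled. The members called lower stayed at 0 under every alternative.

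The 0 called among the other dehydrogenases became 2 lower when averaged over the sexes and 2 higher and 2 lower under the methods' t-test without adjustment, and ran from 0 to 1 lower with each mouse left out (1 without NEKO replicate 3). Under that unadjusted test 1 retinoid gene was higher, 3 folate genes were higher and 1 lower, and 4 genes of formaldehyde, acetaldehyde and ethanol handling were higher. The last list had 1 higher under normexp, 1 with slide as a random block, 2 when averaged over the sexes and 1 under eBayes with trend and robust.

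Of all named genes, 15 were called higher and 23 lower. These numbers became 57 and 81 under normexp, 6 and 12 with detection on all 8 arrays, 9 and 14 with no sex term, 204 and 208 when averaged over the sexes, 34 and 42 under eBayes with trend and robust, 743 and 882 under the methods' t-test without adjustment and 0 and 1 with it. With each mouse left out they ran from 8 to 19 and from 7 to 18. The causes were not tested. Signal near background limits the size of the Adh7 and Aldh3a1 changes.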
